A study of Mus musculus with 3 samples.

Results

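The 10 genes described here encode the machinery with which a B cell displays peptides on major histocompatibility complex (MHC) class II molecules. They were taken by name from the 27088 genes of the deposited table: the chains of the surface molecules (H2-Aa, H2-Ab1, H2-Eb1), the chains of the peptide editors DM (H2-DMa, H2-DMb1, H2-DMb2) and DO (H2-Oa, H2-Ob), the invariant chain Cd74 and the class II transactivator Ciita. All 10 were found, and all 10 passed the minimum level for a comparison. The series holds 3 RNA sequencing libraries of sorted splenic B cells from female BALB/c mice, 1 library for each of the Control, PBS and SJMHE1 groups, each made by mixing the samples of 3 mice. The mice were 6 weeks old at the start and 13 weeks old by the sample labels.

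PBS and SJMHE1 mice carried the same allergic rhinitis model. Both groups were sensitized to ovalbumin (OVA) on days 0, 7 and 14, with 10 μg OVA and 2 mg alum at each injection, and were then challenged through the nose with 100 μg OVA, first from day 21 until day 27 and again from day 29 until day 35. On days 0, 14 and 28 the groups received either PBS or 10 μg SJMHE1, a small peptide of the blood fluke Schistosoma japonicum, and they were sacrificed on day 36. SJMHE1 was given in incomplete Freund's adjuvant and PBS was given without it, so the peptide and this adjuvant cannot be told apart. The Control group was not analysed here. With 1 library per group there is no replicate check of any difference and no test was made, so every value below describes these libraries and not the conditions.

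MHC class II molecules are pairs of an alpha and a beta chain. In the endoplasmic reticulum the pair is bound by the invariant chain, which blocks the groove and guides the complex to the endosomes. There the invariant chain is cut down by proteases to a short remnant, CLIP, DM exchanges CLIP for antigen peptides, and DO restrains DM in B cells. The display of peptides to CD4+ T cells lets a B cell obtain their help, and transcription of the whole set depends on Ciita, which is recruited by factors bound to conserved boxes in the promoters.

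The promoter boxes are the sequence feature that these genes are known to share, so they are shown first. The RefSeq promoter table (GRCm38.p6, from 250 bases before to 50 bases after each start) had an entry for 7 of the 10 genes, with none for H2-Ab1, Cd74 and Ciita. On both strands, the letters TGATTGG, the form of the Y box that NF-Y binds, were searched, together with AAC, letters of the X box that RFX binds, lying 20 to 30 bases before them. The letters and the spacing were chosen after these promoters had been read. The 5 stretches below run 5′ to 3′ on the strand of the gene, and the capitals mark AAC and TGATTGG.
H2-Aa, chr17:34287867-34287909, minus strand: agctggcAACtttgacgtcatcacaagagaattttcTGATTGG
H2-Eb1, chr17:34305771-34305812, plus strand: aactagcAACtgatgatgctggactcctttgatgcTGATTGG
H2-DMb2, chr17:34145121-34145163, plus strand: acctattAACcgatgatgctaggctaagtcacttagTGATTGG
H2-Oa, chr17:34092298-34092340, plus strand: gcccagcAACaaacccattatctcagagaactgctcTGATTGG
H2-Ob, chr17:34238813-34238852, plus strand: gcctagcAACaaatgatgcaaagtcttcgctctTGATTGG

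Of the 7 genes with an entry, 6 held the pair, the sixth being H2-DMb1, whose stretch was identical to that of H2-DMb2 at 38 of 43 bases (88.4%). In the GENCODE M21 annotation, all 43 bases of the H2-DMb1 stretch lie in an untranslated exon part of H2-DMb1 itself. Among all 32851 promoters of the table, 7.82% held TGATTGG and 1.05% held the pair. Counted by gene, 1.21% held the pair. The gap between the capitals was 26 bases in H2-Aa, H2-DMb1, H2-DMb2 and H2-Oa, 25 bases in H2-Eb1 and 23 bases in H2-Ob. H2-Oa holds 2 AAC that meet the spacing, and its gap is given from the earlier one. In H2-DMa, neither form was found in its promoters of the table, which says only that these letters are not in these windows.

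The libraries were deep for all of these genes. The total count was 48267168 for PBS and 51280237 for SJMHE1. A count of 0 would allow up to 0.0622 and 0.0585 CPM (counts scaled to a library total of 1000000), and the lowest count of any of the 10 genes was 6378. Levels are given as FPKM, which divides a count by gene length and library size, and a difference is log2 of the SJMHE1 value over the PBS value. Its 95% interval covers counting error only. As a check of the sort, B cell markers were abundant in both libraries, with Cd79a, the alpha chain of the B cell receptor complex, at 835.02 and 835.2 FPKM in the PBS and SJMHE1 libraries. T cell markers were much lower but present, and 7 of 8 were more than 2-fold lower in the SJMHE1 library, with a summed level of 57.65 FPKM in PBS and 33.06 FPKM in SJMHE1. Lck, the exception, held 27.92 and 25.19 FPKM of these sums, so most of the SJMHE1 sum is this gene. Dendritic cells express class II genes strongly, and their 8 markers summed to 8.3 and 3.84 FPKM. The macrophage markers, also of cells that can express class II genes, summed to 28.73 and 23.43 FPKM. The part of these cells in the class II levels was not tested, and in pooled cells fewer cells of a type and less RNA per cell cannot be told apart.

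By FPKM, the ranks of the 10 genes among the 27088 ran from 5 for Cd74 to 772 for Ciita in the PBS library. In the SJMHE1 library they ran from 3 to 671 for the same genes. Cd74 alone held 427863 of the 812741 PBS counts of the set. Together the 10 genes took 1.68% of all PBS counts and 1.63% of all SJMHE1 counts, and their FPKM values summed to 7316.54 and 7027.32. The order of their levels in FPKM was the same in both libraries, from Cd74 through H2-Eb1, H2-Ab1, H2-DMb2, H2-Aa, H2-Ob, H2-DMb1, H2-Oa and H2-DMa to Ciita. In neither library did the exact Poisson intervals of any of the 9 neighbouring pairs in this order overlap. These intervals leave out differences between mice. They also leave out error in the gene length that FPKM divides by, and in sharing reads between the similar genes H2-DMb1 and H2-DMb2. The order by counts was another one. In PBS, H2-Aa (80099 counts) stood above H2-Eb1 (79605 counts), and Ciita (26153 counts) above H2-DMa (15485 counts).

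**Figure D1:**
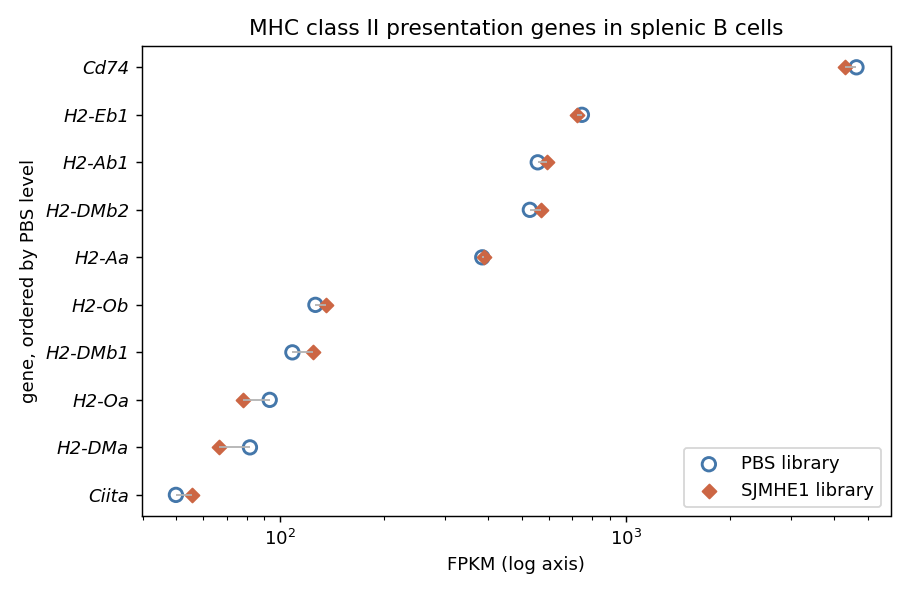
Level of each of the 10 genes in the PBS library (open circles) and the SJMHE1 library (filled diamonds), in FPKM on a log axis, with 1 library per group. The order of the genes is the same in both libraries, from Cd74 at 4642.73 and 4297.17 FPKM down to Ciita at 49.97 and 55.78 FPKM.

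Compared with the PBS library, none of the 10 genes in the SJMHE1 library differed by as much as 2-fold. Of all 12433 genes compared, 2.43% were more than 2-fold higher and 3.57% more than 2-fold lower, so a count of 0 among 10 genes is near the background. The largest difference among the class II genes was 1.23-fold, and 0 of 10 lay past a log2 ratio of 0.5, against 17.1% of all genes compared, a share that was lower among genes with as many counts. Their median log2 ratio was 0.05, with quartiles of -0.09 and 0.11, and the median of all genes compared was -0.01, with quartiles of -0.21 and 0.17.

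Ratios vary more among genes with few counts. The 2077 genes with at least 5000 counts in both libraries were therefore taken as another background, chosen after the values were seen. Of these, 70 were past a log2 ratio of 0.5 and 0.674% were past 2-fold in either direction, and the quartiles of their log2 ratios were -0.11 and 0.13. These quartiles are close to those of the class II genes.

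Small differences were still resolved at this depth. The counting interval lay wholly above 0 for 5 of the 10 genes (H2-Ab1, H2-DMb1, H2-DMb2, H2-Ob and Ciita), against 30.9% of all genes compared. It lay wholly below 0 for 4 genes (H2-Eb1, H2-DMa, H2-Oa and Cd74), against 34.4% of all genes compared. It included 0 for H2-Aa alone. An interval that leaves out 0 says that the difference is larger than counting error, and among the 2077 genes with many counts 854 intervals lay above 0 and 826 below.

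The scaling of the libraries moves all 10 genes alike. With equal FPKM sums, 0.083 was added to each log2 ratio, and the other scalings moved it by -0.0053 to 0.045. With equal sums the log2 ratio was 0.19 for H2-DMb2, 0.19 for H2-Ob and 0.24 for Ciita, against 0.11, 0.10 and 0.16 as deposited. Since the shift is the same for each gene, it weighs most beside the smallest ratios, those of H2-Aa (0.01) and H2-Eb1 (-0.04). Only H2-Eb1 changed sign.

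The surface molecules of BALB/c mice are I-A, built of H2-Aa and H2-Ab1, and I-E, whose beta chain is H2-Eb1. H2-Aa (ENSMUSG00000036594, chr17:34282744-34287823 in mm10, minus strand) was at 384.22 FPKM in the PBS library (80099 counts) and 387.54 FPKM in the SJMHE1 library (85521 counts), a log2 ratio of 0.01 (interval -0.0015 to 0.03). H2-Ab1 (ENSMUSG00000073421, chr17:34257689-34269419, plus strand) was at 555.96 FPKM (78368 counts) and 591.06 FPKM (88193 counts), a log2 ratio of 0.09 (0.07 to 0.10). As deposited, the interval of the alpha chain included 0 and the beta chain was 6.31% higher in the SJMHE1 library. With equal FPKM sums the log2 ratios were 0.095 for H2-Aa and 0.17 for H2-Ab1, and with DESeq2's size factors they were 0.057 and 0.13.

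H2-Eb1 (ENSMUSG00000060586, chr17:34305867-34316674, plus strand) was the most abundant chain of the surface molecules among the 10 genes, at 746.02 FPKM in PBS (79605 counts) and 723.52 FPKM in SJMHE1 (81725 counts). Its log2 ratio was -0.04 (-0.06 to -0.03), and this sign depends on the scaling of the libraries, being 0.039 when both libraries were scaled to equal FPKM sums and 0.00048 with DESeq2's size factors. The FPKM of the 3 surface chains summed to 1686.2 in PBS and 1702.12 in SJMHE1, a log2 ratio of 0.01.

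The alpha chain of I-E, H2-Ea, is not among the 10 genes but completes the pair. It was at 2214.94 FPKM in PBS and 1987.57 FPKM in SJMHE1, a log2 ratio of -0.16 (-0.17 to -0.14). The GENCODE M21 annotation, which holds 27025 of the 27088 deposited gene identifiers, names it H2-Ea-ps. The C57BL/6 strain of the reference genome does not express it, whereas the BALB/c mice used here carry the H2-d haplotype and do. The class II genes differ in sequence between these strains, and the effect of that on the levels was not tested. H2-Eb2, a second beta chain gene of the region, was at 7.52 and 7.74 FPKM, a log2 ratio of 0.04 (-0.06 to 0.15).

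Cd74 (ENSMUSG00000024610, chr18:60803848-60812646, plus strand), which encodes the invariant chain, was the fifth most abundant gene of the PBS library and the third of the SJMHE1 library. Its level was 4642.73 FPKM in PBS (427863 counts) and 4297.17 FPKM in SJMHE1 (419211 counts), a log2 ratio of -0.11 (-0.12 to -0.11) and a difference of -7.44%. With equal FPKM sums the log2 ratio was -0.029, and with DESeq2's size factors it was -0.067. Its rank thus moved up while its FPKM was lower. The FPKM of Cd74 relative to the sum of H2-Aa, H2-Ab1 and H2-Eb1 was 2.75 in PBS and 2.52 in SJMHE1, and with H2-Ea in the sum it was 1.19 and 1.16.

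DM is a pair of H2-DMa with the product of either beta chain gene. H2-DMa (ENSMUSG00000037649, chr17:34119541-34139101, plus strand) was at 81.8 FPKM in the PBS library (15485 counts) and 66.49 FPKM in the SJMHE1 library (13324 counts), a log2 ratio of -0.30 (-0.33 to -0.27). At -18.7%, this was the largest difference of the 10 genes. Its ratio stood at percentile 17.8 of all genes compared and at percentile 5.06 of those with at least 5000 counts.

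Part of that locus is shared with another gene. H2-DMa overlaps Brd2, a chromatin reader gene on the opposite strand, and 360 bases, 10.4% of the exonic bases of H2-DMa, are exonic in both. Brd2 was at 67.43 FPKM in PBS and 57.15 FPKM in SJMHE1, a log2 ratio of -0.24 (-0.26 to -0.21), so both genes were lower in the SJMHE1 library. Whether the counting used strand was not given in the sources used here, and without strand the reads of the shared bases cannot be told apart.

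The beta chains of DM went the other way. H2-DMb1 (ENSMUSG00000079547, chr17:34153072-34160230, plus strand) was at 108.52 FPKM in PBS (10015 counts) and 124.2 FPKM in SJMHE1 (12132 counts), a log2 ratio of 0.19 (0.16 to 0.23). H2-DMb2 (ENSMUSG00000037548, chr17:34143307-34151555, plus strand) was at 527.51 FPKM (50585 counts) and 567.59 FPKM (57614 counts), a log2 ratio of 0.11 (0.09 to 0.12). H2-DMb1 was 14.4% higher in the SJMHE1 library, the largest positive difference of the set.

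The beta chain genes of DM are near copies that lie side by side, and 22.7% of the 50-base windows of the H2-DMb1 transcripts also occur in H2-DMb2, so the split of reads between them is uncertain. Their sum does not depend on that split. It was 636.03 FPKM in PBS and 691.79 FPKM in SJMHE1, a log2 ratio of 0.12. No 50-base window of the other 8 genes was shared with another of the 10.

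DO is the pair of H2-Oa and H2-Ob and is found mainly in B cells and some other antigen-presenting cells. H2-Oa (ENSMUSG00000024334, chr17:34092340-34095234, plus strand) was at 93.31 FPKM in PBS (7207 counts) and 78 FPKM in SJMHE1 (6378 counts), a log2 ratio of -0.26 (-0.31 to -0.21). H2-Ob (ENSMUSG00000041538, chr17:34238903-34249309, plus strand) was at 126.5 FPKM (37361 counts) and 135.97 FPKM (42507 counts), a log2 ratio of 0.10 (0.08 to 0.12). As in DM, the alpha chain was lower in the SJMHE1 library and the beta chain was higher. H2-Oa shares 22.8% of its exonic bases with BC051537 on the opposite strand, a gene that was at 0.59 and 0.66 FPKM and so held few reads beside it.

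Ciita (ENSMUSG00000022504, chr16:10480059-10526426, plus strand), the master regulator of the set, had the lowest level of the 10 genes. It was at 49.97 FPKM in the PBS library (26153 counts) and 55.78 FPKM in the SJMHE1 library (30905 counts), a log2 ratio of 0.16 (0.13 to 0.18), or 11.6% higher. A higher level of the regulator thus stood beside target genes of which some were higher and some lower.

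**Figure D2:**
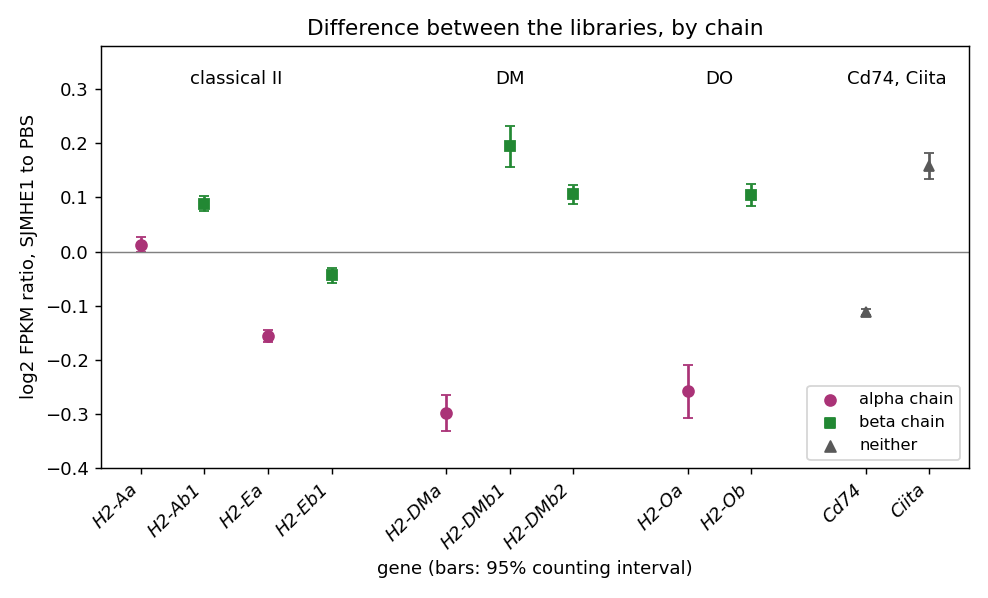
Log2 ratio of FPKM, SJMHE1 to PBS, for the 10 genes and H2-Ea, grouped by complex, with alpha chains as circles, beta chains as squares and 95% intervals for counting error as bars. H2-DMa at -0.30 and H2-Oa at -0.26 are the lowest, and within each complex the alpha chain lies below its beta chain.

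The ratio of an alpha chain to its beta chain within a library does not depend on how the libraries are scaled. The FPKM ratio of H2-DMa to H2-DMb1 was 0.754 in PBS and 0.535 in SJMHE1, a log2 difference of -0.49 (-0.54 to -0.44). That of H2-DMa to H2-DMb2 was 0.155 and 0.117 (log2 difference -0.40, interval -0.44 to -0.37). That of H2-Oa to H2-Ob was 0.738 and 0.574 (log2 difference -0.36, interval -0.42 to -0.31). In both peptide editors the alpha chain was therefore lower relative to its partner in the SJMHE1 library.

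The surface molecules showed the same sign at a smaller size. The FPKM ratio of H2-Aa to H2-Ab1 was 0.691 in PBS and 0.656 in SJMHE1, a log2 difference of -0.08 (-0.10 to -0.06). That of H2-Ea to H2-Eb1 was 2.97 and 2.75, a log2 difference of -0.11 (-0.13 to -0.09). All 5 of these comparisons had the lower value in the SJMHE1 library, but they are not independent, since H2-DMa enters 2 of them and H2-DMb1 and H2-DMb2 share sequence. The pattern was seen in the values and then set out, and with 1 library per group it has no replicate check.

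The balance between DM and DO, in contrast, was nearly level. The FPKM ratio of H2-DMa to H2-Oa was 0.877 in PBS and 0.852 in SJMHE1, a log2 difference of -0.04 (-0.10 to 0.02). The ratio of the summed DM beta chains to H2-Ob was 5.03 and 5.09, a log2 difference of 0.02 (-0.01 to 0.04). Summed over both editors, the alpha chains were at 175.11 FPKM in PBS and 144.49 FPKM in SJMHE1, and the beta chains were at 762.53 and 827.76 FPKM.

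**Figure D3:**
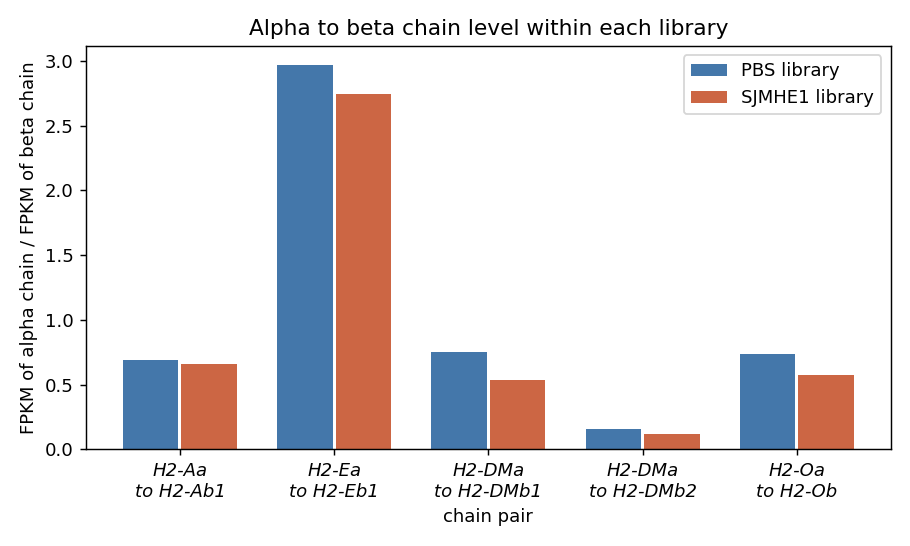
FPKM of the alpha chain divided by FPKM of the beta chain within each library, for 5 chain pairs, with 1 library per bar and an axis that starts at 0. The SJMHE1 bar is the lower in each pair, from 0.754 to 0.535 for H2-DMa to H2-DMb1 and from 0.691 to 0.656 for H2-Aa to H2-Ab1.

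Of the 10 genes, 8 lie together on chromosome 17, between 34092340 and 34316674, with Cd74 and Ciita on chromosomes 18 and 16. This stretch of 224335 bases held 19 genes of the table, of which 7 others passed the minimum level. Their median log2 ratio was 0.09, and they ranged from -0.24 for Brd2 to 1.03 for the noncoding gene Gm15821, which rests on 51 and 109 counts. Psmb9, an immunoproteasome subunit, was at 15.06 FPKM in PBS and 16.03 FPKM in SJMHE1, and Tap1, a subunit of the peptide transporter, was at 31.76 and 33.82 FPKM, each with a log2 ratio of 0.09. Tap2, the partner of Tap1, was at 30.87 and 27.72 FPKM, a log2 ratio of -0.16. In order of position, the first 3 genes compared, H2-Oa, Brd2 and H2-DMa, all had a counting interval below 0. From H2-DMb2 to Gm20513 only Tap2 did, and H2-Eb1, the last gene of the stretch, did again.

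The other steps of class II presentation are described by lists, whose counts stand beside 30.9% of intervals above 0 and 34.4% below 0 over all genes compared. Equal FPKM sums add 0.083 to each list's median as well. Of 10 genes for proteases and helpers that process the invariant chain and antigens, 0 were past 2-fold, 2 had an interval above 0 and 7 below 0, and the median log2 ratio was -0.13, or -0.044 with equal FPKM sums. Ifi30, the lysosomal thiol reductase and the most abundant of them, was at 365.91 FPKM in PBS and 337.98 FPKM in SJMHE1, a log2 ratio of -0.11. Ctss, the protease that makes the last cut of the invariant chain in B cells, was at 210.8 and 231.24 FPKM, a log2 ratio of 0.13. The highest ratio was that of Sppl2a, which clears the remaining invariant chain stub from the membrane, at 8.71 and 9.71 FPKM (log2 ratio 0.16), and the lowest was that of Ctsl, at 1.65 and 0.92 FPKM (log2 ratio -0.84).

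The factors that bind the boxes shown above were measured as well. Of 7 such genes, 0 were past 2-fold, 5 had an interval above 0 and 2 below 0, and the median log2 ratio was 0.16. Creb1 was at 9.38 FPKM in PBS and 12.24 FPKM in SJMHE1, and Nfya, a subunit of NF-Y, was at 9.41 and 12.24 FPKM, each with a log2 ratio of 0.38. Rfx5, the most abundant, was at 19.61 and 21.68 FPKM (log2 ratio 0.14), and Rfxap, its partner in the RFX complex, had the lowest ratio, at 4.67 and 3.78 FPKM (log2 ratio -0.31).

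The 9 genes listed as regulators of Ciita had a median log2 ratio of -0.05, which was 0.03 when the libraries were scaled to equal FPKM sums, with 0 past 2-fold, 1 interval above 0 and 4 below 0. Irf4 was the most abundant and had the lowest ratio, at 136.65 FPKM in PBS and 105.9 FPKM in SJMHE1 (log2 ratio -0.37). Prdm1, which silences Ciita in plasma cells, was at 2.31 and 2.19 FPKM, a log2 ratio of -0.08 (-0.23 to 0.07).

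After assembly, the surface molecules are acted on by Marchf1, a ubiquitin ligase that sends them for degradation, and by Cd83, which opposes it. Cd83 was at 219.67 FPKM in PBS (31012 counts) and 140.28 FPKM in SJMHE1 (20964 counts), a log2 ratio of -0.65 (-0.67 to -0.62). Marchf1 was at 31.38 and 32.33 FPKM, a log2 ratio of 0.04. Marchf8 was at 0.47 and 0.75 FPKM, under the minimum level for a comparison. Cd83 was thus lower by more than any of the 10 class II genes, though by less than 2-fold.

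CD74 also reaches the cell surface, where it acts as a receptor, and of 4 genes for its ligands and partner receptors 3 had an interval below 0. Cd44, a partner receptor, was at 11.62 FPKM in PBS and 7.29 FPKM in SJMHE1 (log2 ratio -0.67), Mif, a ligand of CD74, was at 36.97 and 28.12 FPKM (log2 ratio -0.39), and Cxcr4, the most abundant, was at 183.14 and 162.83 FPKM (log2 ratio -0.17). Ddt, another ligand, was at 8.55 and 8.09 FPKM, with an interval that included 0. The median of these 4 genes was -0.28.

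Of 7 costimulatory and adhesion genes, which set how a T cell reads the presented peptide, 2 had an interval above 0 and 3 below 0, and 0 were past 2-fold. Icosl, the ligand of ICOS and the most abundant, was at 72.1 FPKM in PBS and 100.98 FPKM in SJMHE1 (log2 ratio 0.49). Cd274, the inhibitory ligand PD-L1, was lowest, at 38.49 and 28.71 FPKM (log2 ratio -0.42). The median of the list was -0.06, and 0.02 with the libraries scaled to equal FPKM sums.

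Class I presentation serves CD8+ T cells. Of its 11 genes, 9 had an interval above 0 and 1 below 0, beside 30.9% and 34.4% of all genes compared, 0 were past 2-fold, and the median log2 ratio was 0.12, or 0.21 with equal FPKM sums. B2m, the light chain of class I molecules and the most abundant, was at 1131.63 FPKM in PBS and 1231.92 FPKM in SJMHE1 (log2 ratio 0.12), and Canx, a chaperone of the endoplasmic reticulum, was highest, at 44.16 and 64.03 FPKM (log2 ratio 0.54). Tap2 was lowest. The difference between the class I and class II lists was not tested.

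In the KEGG list of antigen processing and presentation, as the table annotates it, all 10 class II genes are among 73 genes. Of the 65 compared, 4 were more than 2-fold higher and 5 more than 2-fold lower in the SJMHE1 library. The shares over all genes compared were 2.43% and 3.57%. Those higher were the heat shock genes Hspa1b (log2 ratio 3.60), Hspa1a (3.39), Hspa1l (1.52) and Hspa8 (1.02), and those lower were the lymphocyte genes Cd8b1 (log2 ratio -2.96), Cd8a (-2.22), Klrd1 (-1.89), Ifng (-1.78) and Cd4 (-1.73). None of these 9 belongs to the class II machinery, and Cd4 and Cd8a are themselves among the T cell markers given above. In the KEGG list of asthma, which holds 8 of the 10, 1 of 15 compared genes was past 2-fold, Cd40lg, with a log2 ratio of -2.41.

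Among the markers of other cells, the B cell list had a median log2 ratio of 0.02, close to the 0.05 of the class II genes. As deposited, the sums went opposite ways. The B cell list summed to 2925 FPKM in PBS and 3082.1 FPKM in SJMHE1, and the 10 class II genes to 7316.54 and 7027.32 FPKM. Single genes weigh heavily in these sums. Cd74 alone, at 4642.73 and 4297.17 FPKM, was lower by more than the class II sum was. Cr2, of the B cell list, was at 136.27 and 218.29 FPKM. By gene, 6 of 9 B cell genes and 6 of 10 class II genes had a positive log2 ratio. The log2 ratio of the class II sum, -0.058, is also smaller in size than the 0.083 that equal FPKM sums add. The T cell list had a median of -1.90, the NK cell list -1.22 and the dendritic cell list -0.93, or -0.97 with Batf3, at 0 in the SJMHE1 library, set to its bound. Many of these markers are near or under 1 FPKM, and with a pseudocount of 1 FPKM the 3 medians were -0.98, -0.30 and -0.21. The macrophage list had a median of 0.07, and of its 7 genes compared 3 had an interval above 0 and 3 below 0. C1qb was past 2-fold higher on 73 and 155 counts, and Cd68 had the lowest log2 ratio, -0.90, on 871 and 495 counts. The neutrophil and erythroid lists had medians of 0.44 and 0.62. The plasma cell list, of cells that shut class II genes down, had a median of -0.34. Of its 6 genes, 4 had an interval below 0 and 1 above 0. Tnfrsf17 was past 2-fold lower on 87 and 42 counts. Xbp1 went the other way, at 25.54 FPKM in PBS and 33.83 FPKM in SJMHE1, a log2 ratio of 0.41 (0.35 to 0.46).

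**Figure D4:**
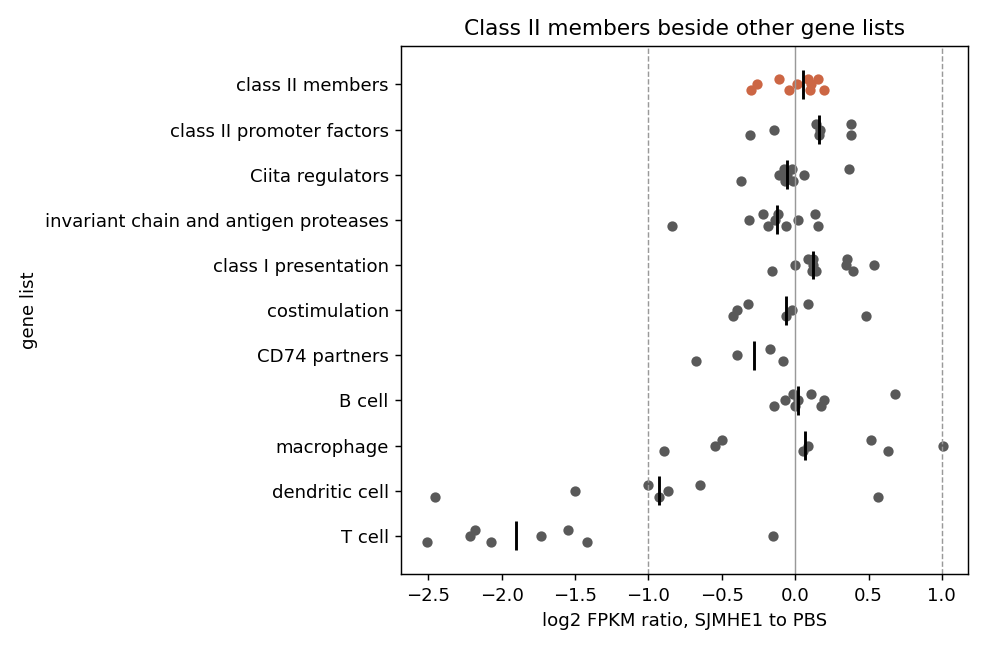
Log2 ratio of FPKM, SJMHE1 to PBS, for each gene (points) of the class II set and of 10 other lists, with the median of each list as a vertical bar and dashed lines at a 2-fold difference. All 10 class II genes lie within 0.30 of 0, and the T cell list, with a median of -1.90, lies farthest away.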

How the data were processed

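RNA of sorted splenic B cells, mixed from 3 mice per group, was sequenced by LC-BIO, whose cloud platform was used for the analysis. The submitters' processing notes name bcl2fastq 2.0, HISAT2, StringTie, DESeq2, limma and mm10. The counting tool and its use of strand were not given in the sources used here. The authors deposited 1 table with whole-number counts per gene, not normalized, and with FPKM values, scaled by gene length and library size and rounded to 2 decimals. Value columns were matched to samples by name. The names of 2 per-sample columns match no sample, so these were not used and no comparison with the Control group was made.

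From the deposited FPKM values, log2 ratios were computed without a pseudocount for genes that reached an FPKM of 1 in either library and were above 0 in both. Gene lists used a minimum of 0.1. The threshold was a log2 ratio past 1. The 95% interval was derived from the Clopper-Pearson limits (exact) of both counts, scaled by 0.94468, the FPKM ratio per count ratio, and covers counting error only. No test was made, as each group has 1 library. From each list, the text names the genes past the threshold, the most abundant, and those with the highest and lowest ratios, and the other genes named were chosen after their values were seen. The values of some listed genes are not reported here. The members and lists were chosen with earlier results of these data known. Overlaps and shared 50-base windows came from GENCODE M21 and promoters from RefSeq (GRCm38.p6). The deposited coordinates matched M21 for 23503 genes, but not for H2-Ob, Cd74 and Ciita, so the gene models used for counting may differ. Alternatives were pseudocounts of 0.1 and 1, filters on low values, and 6 scalings, including edgeR's TMM and DESeq2's size factors. The calculations were tested on simulated data. Tools were R 4.3.3 (edgeR 4.0.16, DESeq2 1.42.0) and Python 3.11.15 (scipy 1.17.1, numpy 2.4.6, pandas 2.3.3, matplotlib 3.10.9).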

Additional observations from a re-analysis of the deposited data

How the results depend on the processing

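Under every alternative run, 0 of the 10 class II genes were past 2-fold, and their median log2 ratio, 0.05, stayed positive. Pseudocounts and filters left the median at 0.05. A scaling shifts every gene alike: the median was 0.13 with equal FPKM sums, 0.081 without the 50 most abundant genes, 0.076 with TMM and 0.095 with DESeq2's size factors. H2-Eb1 changed sign, to 0.039 with equal sums and 0.00048 with DESeq2's size factors. The intervals wholly above and below 0 numbered 5 and 4, and 6 and 4 when centred on the median of all genes. Counted under further scalings, which were added after seeing the data, they were 7 and 3 with equal sums, 5 and 4 with CPM, 6 and 4 with TMM, and 6 and 3 with DESeq2's size factors. Over the single genes, 87 values stayed inside their counting interval, 33 moved out of it, and 2 were the changes of sign of H2-Eb1. A filter cannot change the ratio of a single gene, and a pseudocount hardly moves genes at these levels. Many of the 87 were therefore fixed in advance, and only the scalings could move the values much. Of the list medians, 40 were classed as the same and 14 as moved. With equal FPKM sums, some medians changed sign, also where classed as the same. They were those of the Ciita regulators (-0.05 to 0.03), the costimulatory genes (-0.06 to 0.02) and H2-Ea with H2-Eb2 (-0.06 to 0.03).

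No paired analysis was possible because the groups, of 1 library each, share no replicate pairs. The alternatives for comparisons with the Control group were not run, as no column name matched it. Depth was not the limit for these genes. What is missing is the spread between mice, which these libraries cannot give, so differences of up to 1.23-fold cannot be set against it.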
